A study of Mus musculus with 65 samples.

Results

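Eomes, Neurog2, Btg2, Gadd45g, Hes6 and Insm1 are 6 genes that mark the step from an apical progenitor to an intermediate progenitor in the developing cortex. They were chosen by name, and all 6 are among the 10407 genes measured. Expression was measured by Patch-seq, in which the contents of a cell are drawn into a glass pipette and its messenger RNA is sequenced, in 65 cells of wild-type CD1 mouse embryos. The tested cells were 19 progenitors of embryonic day 15 (E15) that had been moved into the brain of a younger E12 host, called transplanted cells here. They stand beside 26 E15 cells and 20 E12 cells, both marked by FlashTag, a fluorescent dye taken up by progenitors that divide at the ventricle. The labels call all of them neuronal progenitors. No animal, litter or host is named and each library is 1 cell, so a group counts as 1 sample and nothing between groups was tested.

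In cortical neurogenesis, apical progenitors divide at the ventricle, and many of their daughters become intermediate progenitors, which move to the subventricular zone and divide again to give neurons. Notch signalling, through Hes1 and Hes5, holds cells in the apical state, while proneural factors such as Neurog2 drive them out of it and switch on Eomes, which encodes the T-box factor Tbr2 and is the usual marker of intermediate progenitors. Insm1 is a zinc-finger factor that promotes the formation of these basal progenitors, Hes6 is a Hes-family protein that counters Hes1, Btg2 (Tis21) is an antiproliferative gene of progenitors about to make neurons, and Gadd45g is a growth-arrest and stress-response gene that proneural factors can induce.

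On GRCm38, the genes lie on 5 chromosomes. Eomes spans chr9:118478212-118486132 on the plus strand and Neurog2 chr3:127633135-127635631 on the plus strand. Btg2 and Hes6 lie on the minus strand of chromosome 1, Btg2 at chr1:134075170-134079120 and Hes6 at chr1:91411483-91414038. Gadd45g spans chr13:51846678-51848468 on the plus strand, and Insm1, a gene of 1 exon, spans chr2:146221921-146225020 on the plus strand.

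The promoters of 3 members are shown because the values below turn on them. Btg2 was the member that differed most between transplanted and E15 cells, and Gadd45g and Hes6 were the pair whose levels followed each other most closely over 58 cells of the 3 groups, though not within each group. The windows are from RefSeq (GRCm38.p6), run 5′ to 3′ on the strand of the gene, and hold 250 bases before and 50 bases after an annotated start. Capitals mark TGACGTCA, a cyclic AMP response element, in the window of Btg2 (chr1:134079106-134079405, minus strand). They mark every form of the E-box CANNTG, a motif of bHLH factors in general and not of proneural ones alone, in that of Gadd45g (chr13:51846425-51846724, plus strand). The same motif is marked in the 2 windows of Hes6 on the minus strand (window a, chr1:91413989-91414288, and window b, chr1:91413173-91413472).
Btg2: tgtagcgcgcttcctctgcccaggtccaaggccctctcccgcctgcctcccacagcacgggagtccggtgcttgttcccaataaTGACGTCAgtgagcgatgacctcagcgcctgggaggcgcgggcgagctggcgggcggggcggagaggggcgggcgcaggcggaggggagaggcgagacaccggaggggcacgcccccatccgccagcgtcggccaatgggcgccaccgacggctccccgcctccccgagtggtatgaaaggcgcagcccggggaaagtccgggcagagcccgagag
Gadd45g: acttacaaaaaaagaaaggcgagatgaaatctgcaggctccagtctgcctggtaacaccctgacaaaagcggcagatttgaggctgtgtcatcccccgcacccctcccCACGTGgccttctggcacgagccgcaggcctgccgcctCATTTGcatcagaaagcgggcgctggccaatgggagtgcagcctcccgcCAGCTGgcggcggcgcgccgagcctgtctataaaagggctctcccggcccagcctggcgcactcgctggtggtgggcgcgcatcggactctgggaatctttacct
Hes6 window a: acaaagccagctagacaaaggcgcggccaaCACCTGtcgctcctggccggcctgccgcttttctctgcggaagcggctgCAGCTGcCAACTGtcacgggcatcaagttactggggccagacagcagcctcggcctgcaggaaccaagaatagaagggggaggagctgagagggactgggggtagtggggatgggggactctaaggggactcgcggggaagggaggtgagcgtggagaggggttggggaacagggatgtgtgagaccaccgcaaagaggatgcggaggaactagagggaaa
Hes6 window b: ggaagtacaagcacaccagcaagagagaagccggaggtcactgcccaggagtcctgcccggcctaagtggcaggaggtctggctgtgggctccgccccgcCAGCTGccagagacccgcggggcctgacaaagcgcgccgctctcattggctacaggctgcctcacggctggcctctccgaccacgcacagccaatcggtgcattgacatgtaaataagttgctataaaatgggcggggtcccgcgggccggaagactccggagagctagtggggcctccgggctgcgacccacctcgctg

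RefSeq windows were matched for 5 of the 6 members, 6 windows in all, and motifs were searched on both strands, with overlaps allowed. CANNTG stood in 3 of the 6 windows, the 3 of Gadd45g and Hes6 printed above, and in 72.3% of the 32851 promoters of the same length. Its form CAGCTG, which also counts as a CANNTG match, stood in the same 3 windows and in 16.3% of all promoters, while CAGATG stood in 0 of the 6 and in 17.2% of all. TGACGTCA, searched for after the windows had been seen, stood in the window of Btg2, starting at position -166 from the start, and in 1.79% of all promoters. The N-box CACNAG stood in 4 of 6 windows and 42.5% of all, the T-box motif AGGTGT in 1 of 6 and 13.7%, the RBPJ site TGGGAA in 2 of 6 and 25.6%, TATAAA in 2 of 6 and 13.6%, and CCAAT in 4 of 6 and 37.4%. These matches describe letters in a window and not binding.

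Depth and library type differed between the groups. Transplanted cells held 22358 to 3622411 reads, E15 cells 11449 to 4560871 and E12 cells 10928 to 1635767. Reads of more than 8000 genes were found in 16 libraries: 5 of 19 transplanted, 11 of 26 E15 and 0 of 20 E12 cells. There is no gap at this limit, the nearest libraries on either side holding 7827 and 8193 genes. In the 11 E15 libraries of this kind the summed level of 14 ventral telencephalon and interneuron markers was 3439 to 5510 CPM (reads per 1000000 reads of the genes measured), against 18.5 to 3711 CPM in the other 15 E15 cells, and the summed level of 14 microglia markers was 803 to 10200 CPM against 2.64 to 8343 CPM. The apical progenitor markers, 15 genes such as Sox2, Pax6 and Vim, ran the other way, with medians of 2684 CPM in the 11 and 24367 CPM in the 15. Every cell held reads of that list, the summed level being 1595 to 22854 CPM in transplanted, 1007 to 46526 CPM in E15 and 440.4 to 17037 CPM in E12 cells. The summed level of 5 erythroid markers, globins among them, was 25.2 to 64865 CPM in transplanted, 5.07 to 57643 CPM in E15 and 322 to 21298 CPM in E12 cells. Since reads of a group are added up, these deep libraries weigh heavily, and the ratios of the 6 members are given with and without all 16. The summed microglia markers ran over 3.03 to 2504 CPM in the 5 transplanted libraries of this kind (median 29.5 CPM), and over 0 to 25840 CPM in the other 14 transplanted cells (median 374 CPM). The part of these library differences in the results was not tested.

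Hes6 was read in nearly all cells of each group and differed by less than 2 times between groups over added reads. By the median cell it differed more, at 803 CPM in transplanted and 254.5 CPM in E12 cells. It was read in 18 of 19 transplanted, 24 of 26 E15 and 17 of 20 E12 cells. The lowest, median and highest values were 0, 803 and 1968 CPM in transplanted cells, 0, 438 and 1064 CPM in E15 cells, and 0, 254.5 and 2290 CPM in E12 cells. The groups overlap, the highest E15 cell lying below the highest cell of the other groups, and 7 of 19 transplanted, 3 of 26 E15 and 5 of 20 E12 cells were above 1000 CPM. Over the added reads, Hes6 stood at 789.5 CPM (774 to 805) in transplanted cells, 462 CPM (455 to 469) in E15 cells and 603 CPM (581 to 625) in E12 cells. Bounds in parentheses are exact 95% Poisson limits that treat each read as an independent count. Reads were amplified and carry no molecular identifiers, so these limits understate even the counting error of molecules. They say nothing of the spread between cells.

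Gadd45g was also read in most cells: 16 of 19 transplanted, 20 of 26 E15 and 16 of 20 E12. Its lowest, median and highest values were 0, 223 and 1214 CPM in transplanted cells, 0, 114 and 968 CPM in E15 cells, and 0, 144 and 1603 CPM in E12 cells. The groups overlap, with the highest cell at E12. The group levels were 258 CPM (250 to 267) in transplanted, 192 CPM (188 to 196) in E15 and 241 CPM (228 to 255) in E12 cells. Transplanted replicate 18, the highest transplanted cell, gave 31.4% of the transplanted reads, and without it the transplanted level was 190 CPM.

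Insm1 was read in 14 of 19 transplanted, 22 of 26 E15 and 12 of 20 E12 cells. Its lowest, median and highest values were 0, 82.9 and 450 CPM in transplanted cells, 0, 113.5 and 583 CPM in E15 cells, and 0, 9.02 and 413 CPM in E12 cells. The highest cell of each group lay between 413 and 583 CPM, so the ranges overlap, and the median was lowest at E12. The group levels were 105 CPM (99.4 to 111) in transplanted, 161 CPM (157 to 165) in E15 and 64.5 CPM (57.7 to 72.0) in E12 cells.

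Btg2 was read in 9 of 19 transplanted, 18 of 26 E15 and 9 of 20 E12 cells. Its lowest, median and highest values were 0, 0 and 44.7 CPM in transplanted cells, 0, 24.3 and 578 CPM in E15 cells, and 0, 0 and 270.5 CPM in E12 cells. No transplanted cell exceeded 100 CPM (0 of 19), whereas 4 of 26 E15 and 5 of 20 E12 cells did. All 19 transplanted cells therefore lie within the lower part of the range of the other groups. The group levels were 16.99 CPM (14.8 to 19.4) in transplanted, 62.1 CPM (59.6 to 64.7) in E15 and 45.3 CPM (39.6 to 51.7) in E12 cells.

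Eomes was read in a minority of each group: 7 of 19 transplanted, 12 of 26 E15 and 9 of 20 E12 cells. The lowest and median values were 0 in all 3 groups, and the highest were 268 CPM in transplanted, 544 CPM in E15 and 962 CPM in E12 cells. Above 100 CPM stood 3 transplanted, 5 E15 and 5 E12 cells, so that Eomes formed an upper tail in each group over a majority of cells at 0. The group levels were 26.4 CPM (23.7 to 29.4) in transplanted, 53.8 CPM (51.5 to 56.2) in E15 and 87.8 CPM (79.8 to 96.5) in E12 cells. Transplanted replicate 17 held 51.8% of the transplanted Eomes reads, and the transplanted level without it was 13.5 CPM.

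Neurog2 was read in 7 of 19 transplanted, 8 of 26 E15 and 11 of 20 E12 cells. The lowest, median and highest values were 0, 0 and 447 CPM in transplanted cells, 0, 0 and 691 CPM in E15 cells, and 0, 4.68 and 395 CPM in E12 cells. The groups overlap, and 3 transplanted, 4 E15 and 5 E12 cells were above 100 CPM. The group levels, 26.4 CPM (23.7 to 29.4) in transplanted, 44.1 CPM (42.0 to 46.3) in E15 and 90.2 CPM (82.1 to 99.02) in E12 cells, rest on few cells. E12 replicate 5 gave 79.1% of the E12 reads and E15 replicate 13 gave 57.1% of the E15 reads. Without these cells the levels were 20.5 CPM in E15 and 28.1 CPM in E12 cells.

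**Figure D1:**
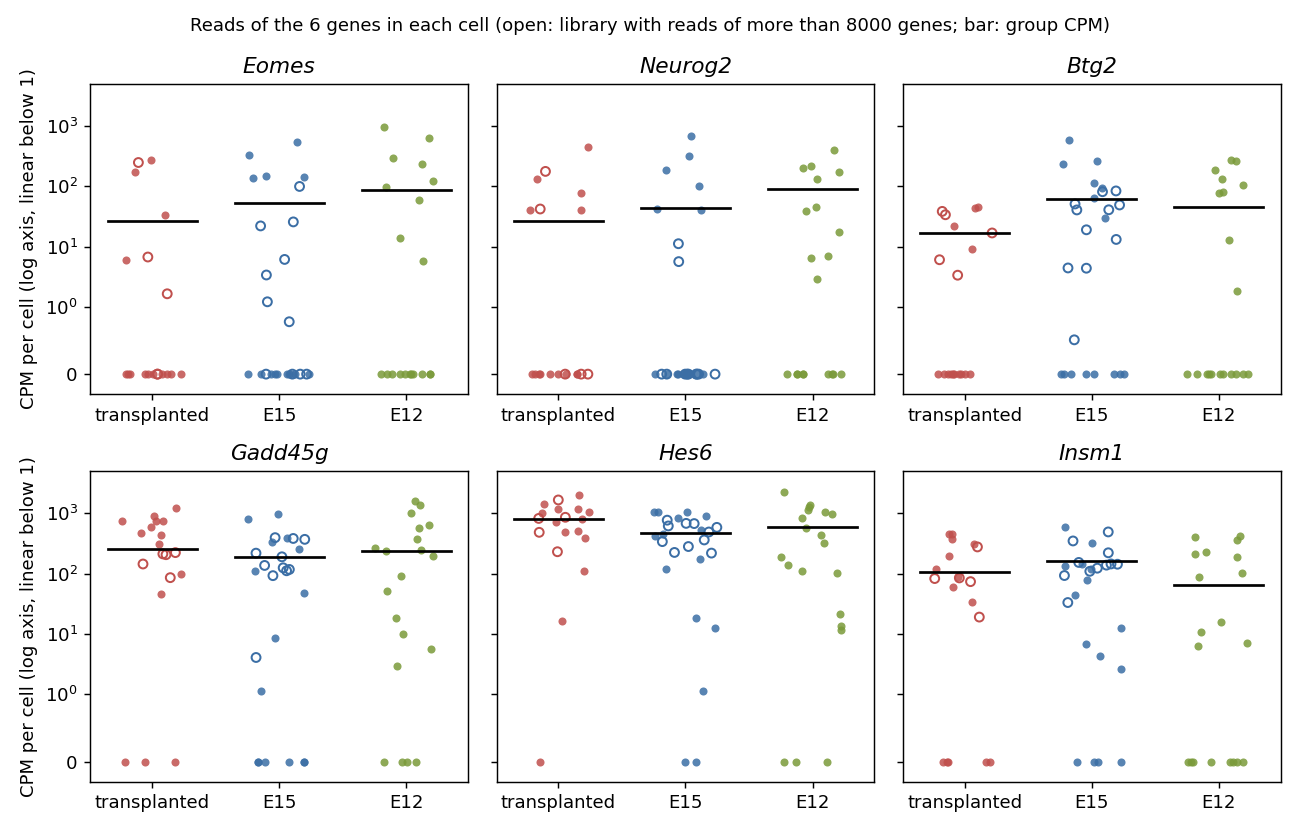
CPM of each of the 6 genes in every cell (vertical axis, logarithmic above 1 CPM) for transplanted, E15 and E12 cells. Open circles are libraries with reads of more than 8000 genes and black bars are group levels over added reads. For Btg2 the 19 transplanted cells all lie below 100 CPM, while for Eomes and Neurog2 most cells of transplanted and E15 groups sit at 0.

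Transplanted cells were compared with E15 cells to ask how the genes stand after a move into a younger brain. Btg2 was lower, 16.99 CPM in transplanted against 62.1 CPM in E15 cells, a log2 ratio of -1.81 (counting limits of the ratio 0.237 to 0.314). It was the only one of the 6 to reach a log2 ratio of 1 in size, the limit of 2 times used here, on the scale of log2(CPM + 1). Of the 10163 genes with at least 5 CPM in either group, 16.5% reached that limit, 4.71% higher and 11.8% lower in transplanted cells, so 1 of 6 is near the background. The ratio of Btg2 was below 0 under all 69 alternatives computed for it, from -4.43 to -1.03 on the CPM scale. Most of these left out a single cell or pool, and so shared most of their reads. Medians over cells are not counted among alternatives here or below. They were 0 in at least 1 group for Btg2, Eomes and Neurog2, but above 0 in every group for Hes6, Gadd45g and Insm1. Leaving out single cells moved it between -2.01 and -1.36.

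The Btg2 difference was also present without the libraries of more than 8000 genes, where the levels were 14.01 CPM in 14 transplanted and 145 CPM in 15 E15 cells, a log2 ratio of -3.28. Within the libraries above 8000 genes it was smaller than 2 times, at 18.7 CPM in 5 transplanted and 27.8 CPM in 11 E15 cells. Cells thinned to the same depth of 28614 reads (17 transplanted and 24 E15 cells) gave -4.09. This was 1 random draw, in which 2 of 17 transplanted and 14 of 24 E15 cells kept a Btg2 read, so its size is uncertain. Over all such draws, 19.99% of transplanted against 50.2% of E15 cells would be expected to show a read at that depth. Among 7 pools, letters in the labels whose meaning is not given there, that held both kinds of cell, Btg2 was lower in transplanted cells in 5 and higher in 2. The share of cells with a read before thinning was 47.4% of transplanted cells (24.4% to 71.1%, exact binomial limits) and 69.2% of E15 cells (48.2% to 85.7%). E15 replicate 13 gave 33.1% of the E15 reads of Btg2, and without pool E, which holds that cell, the ratio was -1.03.

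Btg2 is also known as an early-response gene, so the immediate-early genes are given beside it; their part in the Btg2 difference was not tested. Of 12 such genes tested, 0 were higher and 6 lower by at least 2 times in transplanted cells, with a median log2 ratio of -0.88 against -0.08 over all genes, of which 4.71% were higher and 11.8% lower. Egr1 was at 6.37 CPM in transplanted and 48.1 CPM in E15 cells, and Fos, which pairs with Jun in the AP-1 factor, at 11.8 CPM in transplanted and 55.3 CPM in E15 cells. Jun stood at 175 CPM in transplanted and 130 CPM in E15 cells, and Jund at 303 CPM in transplanted and 450 CPM in E15 cells. Without the libraries above 8000 genes the list had 2 higher and 3 lower, where 18.7% of genes were higher and 28.0% lower, a median of 0.48, and Fos and Egr1 still lower at -3.71 and -2.86.

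The other 5 members were within 2 times of E15 cells over all cells. Eomes was just short of it, at a log2 ratio of -0.999, Neurog2 was at -0.72 and Insm1 at -0.61, while Gadd45g was at 0.43 and Hes6 at 0.77. Only the directions of Btg2 and Hes6 held under every one of the 69 alternatives, those for Hes6 giving 0.25 to 0.95. Insm1 was above 0, at 0.15, without the libraries above 8000 genes, while Gadd45g was at 0.76 and Hes6 at 0.25. The median of the 6 was -0.67, against -0.08 over all genes tested.

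Eomes and Neurog2 depended on which cells were counted. Without the libraries above 8000 genes they stood at 31.9 and 31.5 CPM in transplanted cells, against 147 and 146 CPM in E15 cells, log2 ratios of -2.17 and -2.18. Then 3 of the 6 members were at least 2 times lower and 0 higher, where 46.7% of 9799 genes reached the limit in either direction and 28.0% were lower. Averaged within pools, the ratios of Eomes and Neurog2 were instead above 0, at 0.64 and 1.19. Without E15 replicate 13, that of Neurog2 was 0.35, and without pool E it was 1.51, past 2 times in the other direction.

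**Figure D2:**
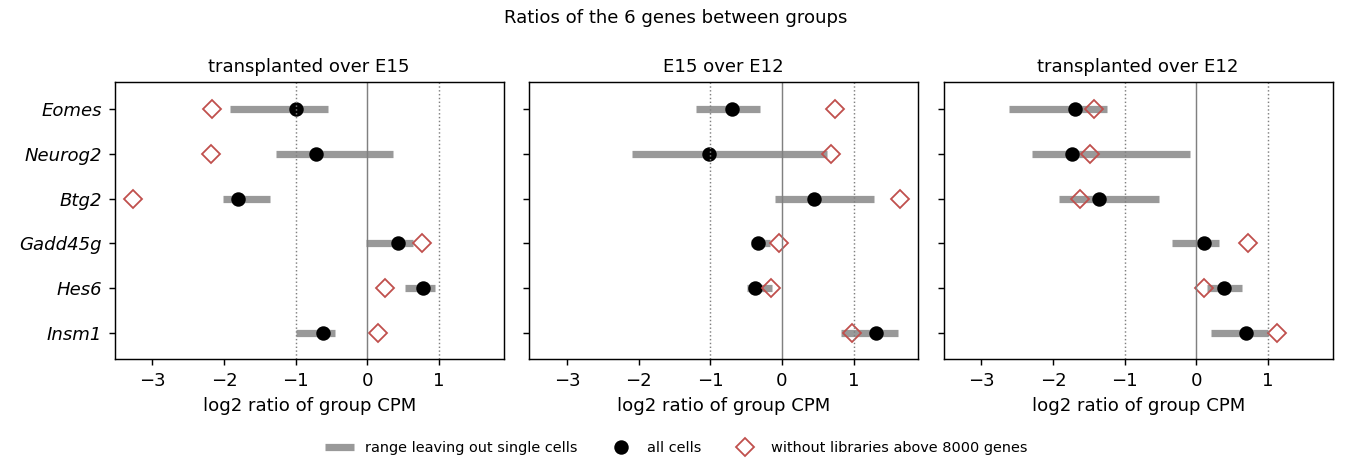
Log2 ratio of group CPM for the 6 genes in the 3 comparisons (horizontal axis; dotted lines at -1 and 1). Black points are all cells, grey bars the range when single cells are left out, and open diamonds the value without libraries above 8000 genes. The bar of Btg2 stays below -1 in transplanted over E15 cells (-2.01 to -1.36), and that of Neurog2 crosses 0 in E15 over E12 cells (-2.09 to 0.63).

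E15 cells were compared with E12 cells for the change over normal development; the E15 cells are the same as in the comparison above. Insm1 was higher at E15, 161 CPM against 64.5 CPM at E12, a log2 ratio of 1.31 with a leave-one-cell range of 0.82 to 1.62. Neurog2 was lower, 44.1 CPM at E15 against 90.2 CPM at E12, a log2 ratio of -1.02. These were the 2 of 6 members to reach 2 times, 1 in each direction, where 45.6% of 10193 genes did so, 25.3% higher and 20.3% lower. Insm1 was read in 22 of 26 E15 and 12 of 20 E12 cells, and thinned to equal depth in an expected 73.8% of E15 and 52.6% of E12 cells.

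The size of the Insm1 difference depended on the measure, depth and library kind. By the median cell, Insm1 stood at 113.5 CPM at E15 and 9.02 CPM at E12, a wider difference. Its log2 ratio was 0.98 without the libraries above 8000 genes, 0.38 on the mean CPM per cell and 0.22 on thinned reads, and the 11 E15 libraries above 8000 genes held Insm1 at 175 CPM against 128 CPM in the other 15 E15 cells. Marker levels differed between these groups too: over added reads, 14 ventral markers summed to 3093 CPM in E15 and 352 CPM in E12 cells, 14 microglia markers to 3522 CPM in E15 and 88.4 CPM in E12 cells, and 15 neuronal markers to 4866 CPM in E15 and 1293 CPM in E12 cells. Their part in the Insm1 difference was not tested. For Neurog2 the lower level at E15 rested on E12 replicate 5, without which the log2 ratio was 0.63. It was 0.69 without the libraries above 8000 genes.

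For the rest, Eomes was at 53.8 CPM at E15 and 87.8 CPM at E12 (log2 ratio -0.70), Gadd45g at 192 CPM at E15 and 241 CPM at E12 (-0.33), and Hes6 at 462 CPM at E15 and 603 CPM at E12 (-0.38). Btg2 was at 62.1 CPM at E15 and 45.3 CPM at E12 (0.45). Eomes turned to the other direction without the libraries above 8000 genes, at 0.74, Gadd45g was at -0.04 and Hes6 at -0.15. As the mean of ratios within pools, Hes6 was above 0 instead, at 1.03, being higher at E15 in 5 of 8 pools. Without the libraries above 8000 genes Btg2 reached 145 CPM at E15, a log2 ratio of 1.65. It was the 1 member past 2 times in that setting, where 45.8% of genes were. Without E12 replicate 19, which gave 49.6% of the E12 reads of Btg2, the ratio over all E15 cells was 1.28, and without pool E it was -1.19.

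Transplanted cells were also compared with E12 cells, those of the age of their hosts; this comparison shares its cells with both others, so its values are not independent of them. Eomes, Neurog2 and Btg2 were at least 2 times lower in transplanted cells, 3 of 6 members with 0 higher (2 of 6 on thinned reads or on the mean CPM per cell), where 24.7% of 9931 genes were lower by that much, 22.9% higher and 47.6% either. Eomes was at 26.4 CPM in transplanted and 87.8 CPM in E12 cells (log2 ratio -1.70, leave-one-cell range -2.62 to -1.25). Neurog2 was at 26.4 CPM in transplanted and 90.2 CPM in E12 cells (-1.73), and without E12 replicate 5 its ratio was -0.09. Btg2 was at 16.99 CPM in transplanted and 45.3 CPM in E12 cells (-1.36), and without E12 replicate 19 its ratio was -0.53.

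Gadd45g, Hes6 and Insm1 were within 2 times of E12 cells over added reads, at log2 ratios of 0.10, 0.39 and 0.69. By the median cell, Hes6 and Insm1 were past 2 times. Hes6 stood at 803 CPM in transplanted and 254.5 CPM in E12 cells, and Insm1 at 82.9 CPM in transplanted and 9.02 CPM in E12 cells. The medians of Gadd45g, 223 CPM in transplanted and 144 CPM in E12 cells, were within 2 times. Without the libraries above 8000 genes, all of which are transplanted cells in this comparison, Eomes, Neurog2 and Btg2 were again lower, at -1.43, -1.49 and -1.63, and Insm1 was higher, at 1.13, while Gadd45g was at 0.72 and Hes6 at 0.10. In that setting 4 of 6 members and 52.3% of genes reached 2 times, 22.5% higher and 29.8% lower. With the limit at 7000 genes, Gadd45g was at 1.68, Insm1 at 1.91 and Hes6 at 0.69. Eomes, Neurog2 and Btg2 were then at -1.51, -2.16 and -3.11. Eomes and Btg2 were below 0 under all 63 alternatives computed here, with Eomes at -0.01 as the mean of ratios within pools.

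Side by side, the 3 sets of ratios put Btg2 lower in transplanted cells than in either other group. Its log2 ratio was -1.81 against E15 and -1.36 against E12, while E15 over E12 was 0.45. Against E12 the ratio was only -0.29 without pool A, and 9 of 19 transplanted and 9 of 20 E12 cells had a read. Hes6, by contrast, was at 0.77 in transplanted over E15 and 0.39 in transplanted over E12 cells. Both were below 2 times over added reads, and above 0 under all alternatives computed for either.

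The values as deposited, log10 residuals with further directions over cells removed, gave a like order of means for Btg2. Its mean residual was -0.20 in 19 transplanted, 0.10 in 26 E15 and 0.06 in 20 E12 cells, and its highest residual was 0.23 in transplanted, 1.29 in E15 and 1.16 in E12 cells. The medians were -0.19 in transplanted, 0.03 in E15 and -0.19 in E12 cells, so by the median transplanted and E12 cells were alike. For Hes6 the means were 0.19 in transplanted, -0.14 in E15 and -0.0005 in E12 cells, and for Gadd45g 0.19 in transplanted, -0.20 in E15 and 0.08 in E12 cells. Those of Insm1 lay close together, at 0.01 in transplanted, -0.01 in E15 and 0.002 in E12 cells, and so did not show the higher Insm1 level at E15 against either group. For Eomes the means were -0.08 in transplanted, -0.004 in E15 and 0.08 in E12 cells, and for Neurog2 0.06 in transplanted, -0.03 in E15 and -0.02 in E12 cells, so that transplanted cells, lower than both others in Neurog2 CPM, were above both here.

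The libraries above 8000 genes differed from the rest in which members they held. In the 11 such E15 libraries, Btg2, Gadd45g, Hes6 and Insm1 were read in 11 of 11, at 27.8, 174, 429 and 175 CPM. Neurog2 was read in 2 of 11 and stood at 1.62 CPM (1.18 to 2.19), against 146 CPM in the other 15 E15 cells, of which 6 had a read. Eomes was read in 7 of 11 and stood at 14.8 CPM, of which replicate 25 gave 72.6%; without that cell the level was 4.54 CPM, against 147 CPM in the other 15 E15 cells.

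The 5 transplanted libraries above 8000 genes showed the same 4 genes in 5 of 5 cells, with Eomes in 3 and Neurog2 in 2. Their levels of Eomes and Neurog2 were 23.3 and 23.5 CPM, with replicate 17 giving 92.6% and 65.3% of the reads. The summed ventral markers were 135 to 4941 CPM in these 5 and 25.1 to 2394 CPM in the other 14 transplanted cells. The limit of 8000 genes was set with these data in view, and marker levels crossed it. E15 replicate 26, with 7587 genes, held 3711 CPM of the ventral markers, and transplanted replicate 14, with 8193 genes, held 135 CPM. The cause of the differences between libraries on either side of the limit was not tested.

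**Figure D3:**
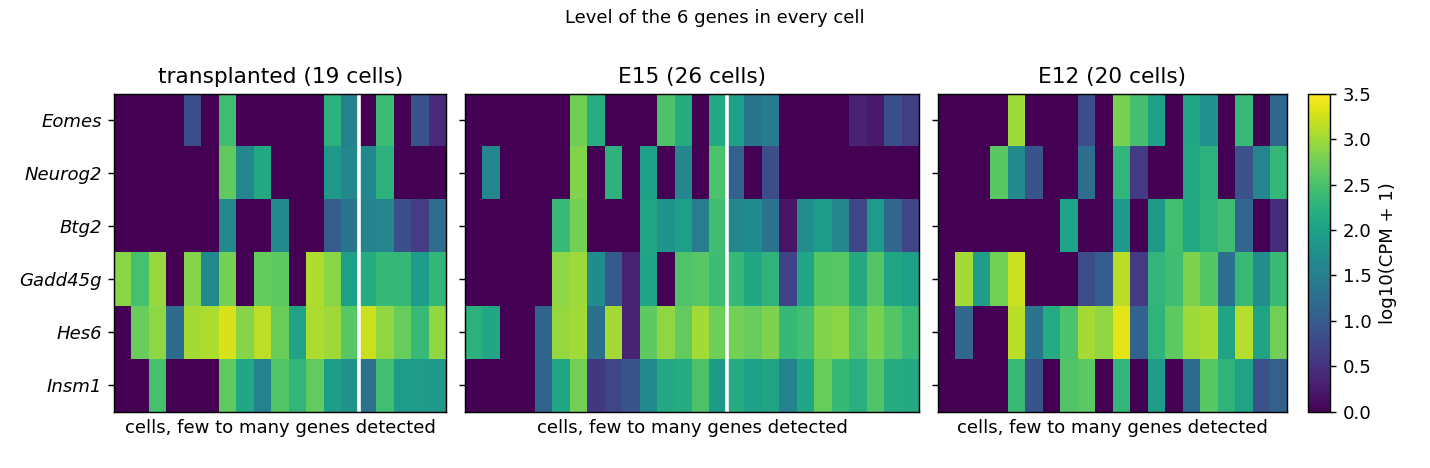
Level of the 6 genes, as log10(CPM + 1), in each of 19 transplanted, 26 E15 and 20 E12 cells (columns), ordered from few to many genes detected, with a white line before the libraries above 8000 genes. Right of the line Gadd45g, Hes6 and Insm1 are present throughout, while Neurog2 is read in 2 of 5 transplanted and 2 of 11 E15 cells.

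More than 1 member was read in most cells, and the number expected from the share of cells of each gene was not computed. Of 19 transplanted cells, 10 held reads of at least 4 of the 6, as did 20 of 26 E15 and 11 of 20 E12 cells, with a median of 4 members in each group. All libraries above 8000 genes did so, 5 of 5 transplanted and 11 of 11 E15, against 5 of 14 and 9 of 15 in the rest. All 6 were read in 4 transplanted, 5 E15 and 5 E12 cells, and none of the 6 in 0 transplanted, 2 E15 and 1 E12 cells. At equal depth, at least 4 were read in 6 of 17 transplanted, 15 of 24 E15 and 8 of 17 E12 cells.

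The overlaps followed the broadly read genes. Every cell with a read of Eomes also had Hes6, 7 of 7 transplanted, 12 of 12 E15 and 9 of 9 E12 cells, and so did every cell with Insm1, 14 of 14 transplanted, 22 of 22 E15 and 12 of 12 E12 cells. Every cell with Btg2 had Hes6 as well, 9 of 9 transplanted, 18 of 18 E15 and 9 of 9 E12 cells. Hes6 was itself read in nearly all cells. Eomes and Neurog2 were read together in 4 of 19 transplanted, 5 of 26 E15 and 8 of 20 E12 cells, and Eomes without Neurog2 in 3 transplanted, 7 E15 and 1 E12 cells.

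Above 100 CPM, the genes coincided in few cells. At least 4 members exceeded it in 2 of 19 transplanted, 5 of 26 E15 and 5 of 20 E12 cells. E15 replicate 9 was the only one of the 65 cells with all 6 above it, at 544 CPM Eomes, 691 CPM Neurog2, 578 CPM Btg2, 968 CPM Gadd45g, 1040 CPM Hes6 and 583 CPM Insm1. That cell also held 1098 CPM of Pax6, a factor of apical progenitors, and 93.5 CPM of Tubb3, the neuronal tubulin. Transplanted replicate 7 was high in all but Btg2, with 268 CPM Eomes, 447 CPM Neurog2, 44.7 CPM Btg2, 581 CPM Gadd45g, 1968 CPM Hes6 and 447 CPM Insm1. E12 replicate 4 had 620 CPM Eomes, 200.3 CPM Neurog2, 76.3 CPM Btg2, 1383 CPM Gadd45g, 2290 CPM Hes6 and 210 CPM Insm1. These 3 cells were picked after their values were seen.

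**Figure D4:**
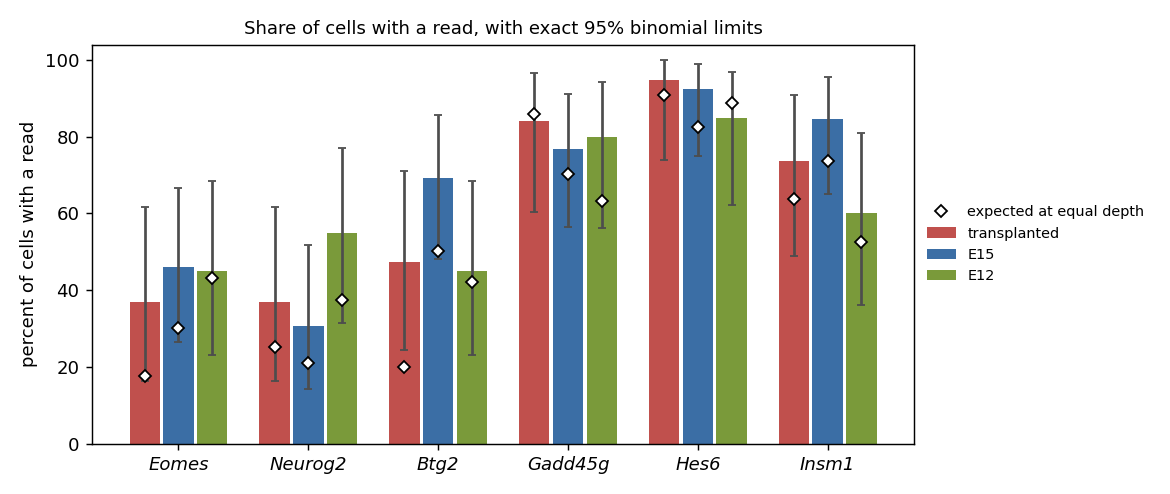
Percent of 19 transplanted, 26 E15 and 20 E12 cells with a read of each gene (bars, with exact 95% binomial limits as lines) and the share expected with each cell thinned to 28614 reads (open diamonds; 17, 24 and 17 cells). For Btg2 the thinned shares are 19.99% of transplanted, 50.2% of E15 and 42.1% of E12 cells, and the limits of the unthinned shares overlap for every gene.

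Rank correlations over 58 cells at equal depth describe which members varied together; the cells of a group share their source and depth was made equal. Gadd45g and Hes6 had the highest of the 15 pairs, a Spearman correlation of 0.51, and it was 0.54 in the 42 of these cells with up to 8000 genes; within a group another pair was highest each time. Btg2 with Insm1 gave 0.43 and Hes6 with Insm1 0.42, Eomes with Neurog2 0.33, and Neurog2 with Insm1 0.08. In the 24 E15 cells Btg2, Gadd45g, Hes6 and Insm1 formed a block with 0.57 to 0.73 for all 6 of their pairs, while Eomes gave 0.07 to 0.17 with them. Of these 24 cells, 11 are libraries above 8000 genes, which held Gadd45g in an expected 90.1%, against 53.7% in the other 13, and Insm1 in 94.7% against 56.1%. In those 13 alone the 6 pairs gave 0.59 to 0.81 and Eomes 0.13 to 0.41 with the 4 genes. In the 17 E12 cells, Eomes gave 0.52 with Gadd45g and 0.55 with Hes6. In the 17 transplanted cells Neurog2 gave 0.60 with Hes6 and 0.55 with Eomes, and Gadd45g with Hes6 0.26.

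Up to 3 genes most like each member were taken by Spearman correlation over the same 58 cells among 6149 genes. Eomes was most like Neurod2, a bHLH factor of young cortical neurons, at 0.50, which was also first of all genes by Pearson correlation of log2 values. In the cells with up to 8000 genes, however, Neurod2 stood at place 42 (0.44), and within transplanted cells its correlation was 0.24. Rhbdl3 and Cwf19l2 followed at 0.46 each, at places 55 and 18 in the cells with up to 8000 genes. Gadd45g was most like Ddx5, an RNA helicase, at 0.53, first also by Pearson correlation and in the cells with up to 8000 genes, followed by Ankrd13a at 0.51 and Ebna1bp2 at 0.49. Hes6 was most like Shfm1 at 0.58 and Ebna1bp2 at 0.50.

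Btg2 was most like Smpd4 at 0.56, D8Ertd82e at 0.56 and Rnpep at 0.53, Neurog2 like Efcab14 at 0.56 and Gsr at 0.53, and Insm1 like Rnf181 at 0.56, Txnrd1 at 0.55 and E2f1, a cell cycle transcription factor, at 0.55. The sum of the 6 members was most like Shfm1 at 0.60. Many of these places depended on the measure: by Pearson correlation Efcab14 stood at place 483 for Neurog2 and Shfm1 at place 691 for Hes6.

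Other genes of the same step are listed for the setting; the lists were chosen with earlier results known. Of 13 other intermediate progenitor genes tested in transplanted over E15 cells, 0 were higher and 1 lower by 2 times, where 4.71% of genes were higher and 11.8% lower, with a median log2 ratio of 0.16. The lower one was Sstr2, a somatostatin receptor, at 7.63 CPM in transplanted and 17.9 CPM in E15 cells. Mfng, a Fringe enzyme that modifies Notch, was at 321 CPM in transplanted and 200.3 CPM in E15 cells. Elavl4, a neuronal RNA-binding protein, was at 228 CPM in transplanted and 204 CPM in E15 cells, and both were within 2 times. Without the libraries above 8000 genes the count was 0 higher and 6 lower, where 28.0% of genes were lower. In E15 over E12 cells 4 of 12 were lower and 1 higher, where 20.3% of genes were lower and 25.3% higher, and the median was -0.53 against -0.03 over all genes. The higher one was Celsr3, with 742 reads in E15 and 1 read in E12 cells, a ratio of 97.8 with counting limits of 17.5 and 3870. Rhbdl3 was lower, at 20.1 CPM in E15 and 120 CPM in E12 cells. The count turned without the libraries above 8000 genes to 4 higher and 1 lower of 13, with a median of -0.14, and Rhbdl3, at 61.5 CPM in E15 and 120 CPM in E12 cells, was within 2 times at -0.96. In transplanted over E12 cells 3 of 13 were lower and 2 higher, where 24.7% of genes were lower and 22.9% higher. The median was -0.73 against -0.09 over all genes, and Rhbdl3 stood at 10.6 CPM in transplanted and 120 CPM in E12 cells. Without those libraries it was 1 higher and 6 lower of 12, a median of -1.06.

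Of 7 other neurogenic bHLH factors, 0 differed by 2 times between transplanted and E15 cells, where 16.5% of genes did, with a median log2 ratio of -0.03. Without the libraries above 8000 genes 1 was higher and 4 were lower, where 18.7% of genes were higher and 28.0% lower. Tcf12, a partner of proneural factors, was at 221 CPM in transplanted and 111 CPM in E15 cells, a log2 ratio of 0.98. In E15 over E12 cells 1 was higher and 1 lower, where 25.3% of genes were higher and 20.3% lower. The lower was Neurod1, a bHLH factor of newborn neurons, at 18.3 CPM in E15 and 39.9 CPM in E12 cells. It was read in 4 E15 cells, and without the libraries above 8000 genes it stood at 57.7 CPM in E15 and 39.9 CPM in E12 cells, in the other direction. Then 1 factor of 7 was higher and 0 lower, where 24.2% of genes were higher and 21.6% lower. In transplanted over E12 cells 2 were higher and 2 lower, where 22.9% of genes were higher and 24.7% lower. Among them were Tcf12 at 221 CPM in transplanted and 92.1 CPM in E12 cells, and Tcf4 at 926 CPM in transplanted and 1928 CPM in E12 cells.

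The list of Notch pathway genes holds receptors, ligands, targets and regulators such as Numb alike, so its counts do not measure Notch activity. It shares Dll1, Dll3 and Mfng with the list of other intermediate progenitor genes. In transplanted over E15 cells 0 of 16 were higher and 2 lower by 2 times, where 4.71% of all genes were higher and 11.8% lower. The 2 were Lfng (2.67 CPM in transplanted and 23.96 CPM in E15 cells) and Numb (4.88 CPM in transplanted and 14.01 CPM in E15 cells). Of 15 tested without the libraries above 8000 genes, 0 were higher and 7 lower, with a median log2 ratio of -0.85, where 28.0% of genes were lower. Hes1, the repressor that Hes6 counters, stood at 98.3 CPM in transplanted and 97.2 CPM in E15 cells, and at 547 CPM in E12 cells. Its levels without the libraries above 8000 genes were 231 CPM in transplanted, 327 CPM in E15 and 547 CPM in E12 cells, so that E15 and E12 cells were within 2 times (log2 ratio -0.74, against -2.48 over all cells). Hey1, another Notch target, was at 39.4 CPM in transplanted, 22.04 CPM in E15 and 190 CPM in E12 cells. Of 17 Notch genes, 1 was higher and 9 lower in E15 over E12 cells, a median log2 ratio of -1.01, where 25.3% of genes were higher and 20.3% lower. Of 16, 0 were higher and 9 lower in transplanted over E12 cells, a median of -1.60, where 22.9% of genes were higher and 24.7% lower. Without the libraries above 8000 genes these counts were 4 higher and 5 lower for E15 over E12 cells, with 24.2% of genes higher and 21.6% lower, and 0 and 11 for transplanted over E12 cells, with 22.5% higher and 29.8% lower.

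Relatives of Btg2 and Gadd45g and cell cycle inhibitors were counted as 1 list of 8 genes, of which 0 were higher and 2 lower by 2 times in transplanted over E15 cells, with a median log2 ratio of -0.49, where 4.71% of genes were higher and 11.8% lower. Those were Gadd45b, at 16.8 CPM in transplanted and 49.9 CPM in E15 cells, and Cdkn1a, the p21 inhibitor, at 10.6 CPM in transplanted and 26.4 CPM in E15 cells. Both were above 0 without the libraries above 8000 genes, at log2 ratios of 1.24 and 0.42. The count was then 1 higher and 0 lower, where 18.7% of genes were higher and 28.0% lower. Btg1, the closest relative of Btg2, was at 61.1 CPM in transplanted and 110 CPM in E15 cells, a log2 ratio of -0.83 that was also -0.83 without those libraries. Cdkn1c was at 108 CPM in transplanted, 78.3 CPM in E15 and 180 CPM in E12 cells. In E15 over E12 cells 4 of the 8 were higher and 2 lower, where 25.3% of genes were higher and 20.3% lower. In transplanted over E12 cells 3 were higher and 1 lower, where 22.9% of genes were higher and 24.7% lower. Without the libraries above 8000 genes the count for E15 over E12 cells was 4 higher and 1 lower, where 24.2% of genes were higher and 21.6% lower. For transplanted over E12 cells it was 4 higher and 3 lower, where 22.5% were higher and 29.8% lower.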

How the data were processed

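Libraries were made from single cells with a 3' SMART-Seq kit and Nextera XT, per the labels' protocols, and STAR, HTSeq and mm10 are named without versions in the submitters' processing notes. The deposited values are log10 residuals: the values themselves show log10 of 1 plus counts scaled to 100000 per cell, centred per gene, with 2 further directions over cells removed by the authors. Counts had been assumed when the tests were chosen, so whole read counts were worked back out of these log10 values. All 356667 non-zero values came out within 0.01 of a whole number (10407 genes), each gene with a read in at least 6 cells, and the method was tested on simulated data.

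Groups come from the labels. Reads were added per group and scaled to CPM over the genes measured, with a pseudocount of 1 CPM and a filter of 5 CPM in either group. Alternatives used other scalings (TMM and median-of-ratios factors in own code), pseudocounts, filters, cells and pools. The libraries above 9000 genes and the recovered library totals were added as alternatives after seeing the data. Members, lists and the limit of 8000 genes were chosen with earlier results of these data known. Named genes are the 6 members, the up to 2 highest and up to 2 most changed genes of each list, and the 3 most alike per member, predicted genes passed over; a few of them are not reported here. Thinned reads come from 1 random draw, while expected shares at equal depth were computed without a draw. Likeness used genes read in at least 25% of thinned cells. The last 3 promoter motifs (TATAAA among them) were added afterwards. The software was Python 3.11.15 with pandas 2.3.3, NumPy 2.4.6, Matplotlib 3.10.9, SciPy 1.17.1 and Numba 0.67.0.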

Additional observations from a re-analysis of the deposited data

How the results depend on the processing

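The number of members that differed by at least 2 times was unstable. In transplanted over E15 cells it was 1, and it became 2 on thinned reads, with a pseudocount of 0.1 CPM, without the shallowest 15% of cells and without pools C, E or G; 3 without libraries above 8000 or 9000 genes, within pools and without pool B; and 5 without libraries above 7000 genes. In E15 over E12 cells it was 2, and it became 1 with TMM or median-of-ratios factors, on mean CPM, on thinned reads, with a pseudocount of 5 CPM, without the shallowest cells, without libraries above 8000 or 7000 genes and without pools B, C, D, G or H, and 4 without pool A. Within pools those past 2 times were Neurog2 (-1.93), Hes6 (1.03) and Insm1 (1.29), and without pool E they were Eomes (-1.65), Neurog2 (-1.81) and Btg2 (-1.19). In transplanted over E12 cells it was 3, and it became 2 on thinned reads, on mean CPM and without pools A and E, each in turn, 4 with libraries above 8000 genes left out and 5 with a limit of 7000. Leaving out single cells gave 1 to 3, 1 to 3 and 2 to 4 in these comparisons. Of all genes tested, 16.5%, 45.6% and 47.6% reached 2 times in these comparisons, and 46.7%, 45.8% and 52.3% without libraries above 8000 genes. Shares of all genes under the other alternatives are not given here.

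Neurog2 in E15 over E12 cells changed sign on thinned reads (0.92, from 1 random draw). It also did so without libraries above 8000, 7000 or 9000 genes (0.69, 0.32 and 0.34) and without E12 replicate 5 (0.63). The range without single cells was -2.09 to 0.63. Eomes there was at 0.74, 0.98 and 0.61 without libraries above 8000, 7000 or 9000 genes, and Insm1 in transplanted over E15 cells at 0.15 without those above 8000. Hes6 in E15 over E12 cells changed sign within pools (1.03), and by the median cell it was also higher at E15, at 438 CPM against 254.5 CPM. Differences of mean deposited residuals changed sign for Insm1 in E15 over E12 cells (-0.012), Neurog2 in transplanted over E12 cells (0.071), and Neurog2 (0.086) and Insm1 (0.021) in transplanted over E15 cells; they give no count of members past 2 times. The cause was not tested. No paired analysis was possible because the labels carry no replicate numbers that match cells across groups; pool letters that groups share gave the ratios within pools. Depth limits Eomes, Neurog2 and Btg2, which had 216 to 446 reads in each of the transplanted and E12 groups.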
